A study of Homo sapiens with 22 samples.

Results

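The regions examined were those of every deposited list that lay within 50 kb of a human HOX cluster, measured from the outer ends of its member gene bodies (GENCODE release 44 on the hg19 build). The members were 38 protein-coding HOX genes, of which 10 belonged to cluster A, 10 to cluster B, 9 to cluster C and 9 to cluster D. The windows were chr7:27089973-27289710 for cluster A, chr17:46555888-46856112 for cluster B, chr12:54282615-54499814 for cluster C and chr2:176907449-177105635 for cluster D. Together they held 915.4 kb, or 0.032% of the genome outside assembly gaps. Over all lists, 600 of 871377 regions fell in these windows, with 190 in cluster A, 240 in B, 90 in C and 80 in D. Once overlapping regions of different lists were merged, they formed 212 of 380124 places, and 99 of the 212 came from a single list.

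HOX genes encode homeodomain transcription factors that give cells their position along the body axis, and within a cluster the genes are ordered as they are expressed from head to tail. The low paralog numbers at the anterior end of a cluster act towards the head, the high numbers at the posterior end act towards the tail and in the urogenital tract. Their promoters are rich in CpG dinucleotides and are classical targets of Polycomb repression, so that clusters are open or closed in blocks. HOXB13, which stands apart from the rest of cluster B, is a lineage factor of the prostate and a partner of the androgen receptor.

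The lists came from ChIP-seq and ATAC-seq of 3 prostate cancer cell lines. PC3 lacks the androgen receptor programme and stands for double-negative disease, NCI-H660 is a neuroendocrine line, and LNCaP is a luminal line driven by the androgen receptor. FOXA2, a forkhead pioneer factor, was profiled in PC3 and NCI-H660 cells under vehicle or after 4 h with the LSD1 inhibitor ORY-1001 at 10 µM, and in PC3 cells also with the LSD1 inhibitor C12 at 0.5 µM, so the inhibitors were not given at matched doses. JUN, an AP-1 subunit, was profiled in PC3 and NCI-H660 cells after transfection with a negative control (siNC) or with siFOXA2, which knocks down FOXA2, and its partner FOSL1 in the same way in PC3 cells. In LNCaP cells JUN was profiled after siNC or siFOXA1, and in lines that carried FOXA2 (FOXA2OE) or its mutant form FOXA2K265R, which the study had made by lentivirus and puromycin selection. FOXA2 itself was profiled in FOXA2OE cells. ATAC-seq, which reads open chromatin, was made in PC3 and NCI-H660 cells, with H3K27ac in PC3 and H3K4me2 in NCI-H660, each labelled vehicle. H3K27ac flags active and H3K4me2 active or poised regulatory chromatin, and because they are different marks, the line and the mark cannot be told apart. A further pair of vehicle PC3 FOXA2 ChIPs, whose antibody the labels do not name, is called the other FOXA2 ChIPs. The title of the FOXA2K265R sample, by which it was grouped, differs from its cell line entry, which reads FOXA2OE.

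Every group had 1 list except the other FOXA2 ChIPs with 2, so no test between conditions was possible and no p-value was computed. The lists held no read numbers, so the depth behind them is unknown. Intervals are 95% Wilson intervals for shares and exact Poisson intervals for numbers, and they cover counting error only. List lengths ranged from 1538 to 210960 regions. Region identifiers named a processing folder, which was shared within every inhibitor and siRNA contrast, between the FOXA2 lists of PC3 and NCI-H660 and between the mark lists. It differed between the ATAC lists of the lines, between their JUN lists, and between FOXA2OE and FOXA2K265R, where folder and line cannot be told apart. The line labels were checked at promoters of marker genes. Of 7 neuroendocrine genes, 7 carried H3K4me2 in NCI-H660 and 1 carried H3K27ac in PC3, but 6 of the 7 were accessible in PC3 too, and only that of CHGA, which encodes chromogranin A, was accessible in NCI-H660 alone. Of 5 androgen receptor and luminal genes, 4 were accessible in PC3 and 3 in NCI-H660, and KLK3, which encodes prostate-specific antigen, was in neither. Of 5 mesenchymal or basal genes, 4 were accessible in each line, with TP63 in NCI-H660 only (score 2093) and KRT5 in PC3 only (44). H3K4me2 in NCI-H660 also marked 3 of the 5 luminal and 4 of the 5 mesenchymal or basal genes. Presence of an accessible region over these lists thus did not set the lines apart beyond single genes such as CHGA. The marks at the neuroendocrine promoters differed, 7 against 1, but H3K4me2 and H3K27ac are different marks. LNCaP had no ATAC or mark list here, and no measure of FOXA2 level was used to check siFOXA2.

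The sequences below are shown because the FOXA2 and JUN results turn on these regions. Each is the plus strand of the hg19 genome with 45 bases on either side of a match to a motif, which was AP-1 in the PC3 region near HOXB1 and in the JUN region and forkhead in the others, and capitals mark a forkhead match (TRTTTRY, R for A or G and Y for C or T) or an AP-1 match (TGACTCA or TGAGTCA), read on both strands. The set begins with the highest-scoring PC3 FOXA2 region, near HOXB13 (chr17:46834165-46834555), and the PC3 FOXA2 regions that overlapped JUN near HOXB1 (chr17:46576656-46576914) and in HOXA6 (chr7:27188770-27189057). It goes on with a PC3 FOXA2 region in front of HOXA13 (chr7:27240404-27240631) and 3 of the NCI-H660 FOXA2 regions, of which 1 lay in HOXB3 (chr17:46664951-46665246) and 2 beyond HOXB1 (chr17:46570005-46570275 and chr17:46583052-46583396). The last is the NCI-H660 JUN region at the last of these places (chr17:46583121-46583533).
PC3 FOXA2 near HOXB13, chr17:46834287-46834383: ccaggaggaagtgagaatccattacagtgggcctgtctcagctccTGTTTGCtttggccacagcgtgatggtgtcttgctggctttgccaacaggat
PC3 FOXA2 and JUN near HOXB1, chr17:46576740-46576836: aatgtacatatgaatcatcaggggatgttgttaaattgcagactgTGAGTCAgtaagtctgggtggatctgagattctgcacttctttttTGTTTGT
PC3 FOXA2 and JUN in HOXA6, chr7:27188877-27188973: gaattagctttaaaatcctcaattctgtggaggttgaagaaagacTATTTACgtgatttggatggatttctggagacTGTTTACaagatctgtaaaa
PC3 FOXA2 at HOXA13, chr7:27240421-27240517: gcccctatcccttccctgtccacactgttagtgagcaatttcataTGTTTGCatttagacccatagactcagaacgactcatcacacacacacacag
NCI-H660 FOXA2 in HOXB3, chr17:46665056-46665152: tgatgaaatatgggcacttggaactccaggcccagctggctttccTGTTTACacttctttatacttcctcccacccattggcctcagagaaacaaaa
NCI-H660 FOXA2 beyond HOXB1, chr17:46570126-46570222: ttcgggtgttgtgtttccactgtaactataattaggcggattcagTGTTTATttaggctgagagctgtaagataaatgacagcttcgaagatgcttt
NCI-H660 FOXA2 beyond HOXB1, chr17:46583183-46583279: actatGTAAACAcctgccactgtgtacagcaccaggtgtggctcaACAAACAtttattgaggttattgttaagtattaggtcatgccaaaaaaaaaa
NCI-H660 JUN beyond HOXB1, chr17:46583332-46583428: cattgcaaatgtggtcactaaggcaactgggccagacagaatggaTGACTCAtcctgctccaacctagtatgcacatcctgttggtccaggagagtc

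The HOX windows were more densely covered with accessible and marked regions than the genome in both lines. PC3 ATAC had 150 regions in the windows, 2.22 times the density of the whole list (interval 1.88 to 2.61), and NCI-H660 ATAC had 77 regions, 2.41 times its density (1.9 to 3.01). The mark lists stood further above their genome density, with 88 H3K27ac regions in PC3 (3.04 times, 2.44 to 3.74) and 75 H3K4me2 regions in NCI-H660 (3.33 times, 2.62 to 4.17). The regions were also wider than usual, with a median of 843 bp for H3K27ac against 573 bp in its whole list and 817 bp for H3K4me2 against 655 bp. As a share of bases, PC3 ATAC covered 6.66% of the windows against 2.25% of the genome, and NCI-H660 ATAC covered 7.48% against 2.24%. Scores rank regions within a list, a higher one standing for stronger enrichment. The median score of the HOX regions was 208.5 in PC3 ATAC against 112 in the whole list, whereas in NCI-H660 ATAC it was 212 against 272.

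The factor lists gave smaller numbers, and only the vehicle and other FOXA2 lists of PC3 and the JUN list of FOXA2OE cells had intervals above the genome density. The PC3 vehicle FOXA2 list had 15 HOX regions, 1.95 times its genome density with an interval of 1.09 to 3.21, and the other FOXA2 ChIPs had 53 (2.13 times, 1.59 to 2.78) and 45 (2.24 times, 1.64 to 3). In NCI-H660 the vehicle FOXA2 list had 4 (1.05 times, 0.286 to 2.69). JUN under siNC had 11 HOX regions in PC3 (1.44 times, 0.718 to 2.57) and 3 in NCI-H660 (0.509 times, 0.105 to 1.49), and FOSL1 under siNC had 4 in PC3 (3.25 times, 0.886 to 8.32). The 3 shortest LNCaP lists, JUN under siNC, JUN under siFOXA1 and FOXA2 in FOXA2OE cells, held no HOX region, but at their genome density only 0.775, 0.629 and 0.801 regions would fall in windows of this size. For the siNC list, 0 of 2421 regions allows a share of up to 0.124% (a limit of 3 regions, in place of an interval), which is above the 0.032% of the genome that the windows make up, so a depletion was not detectable in lists of this length.

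**Figure D1:**
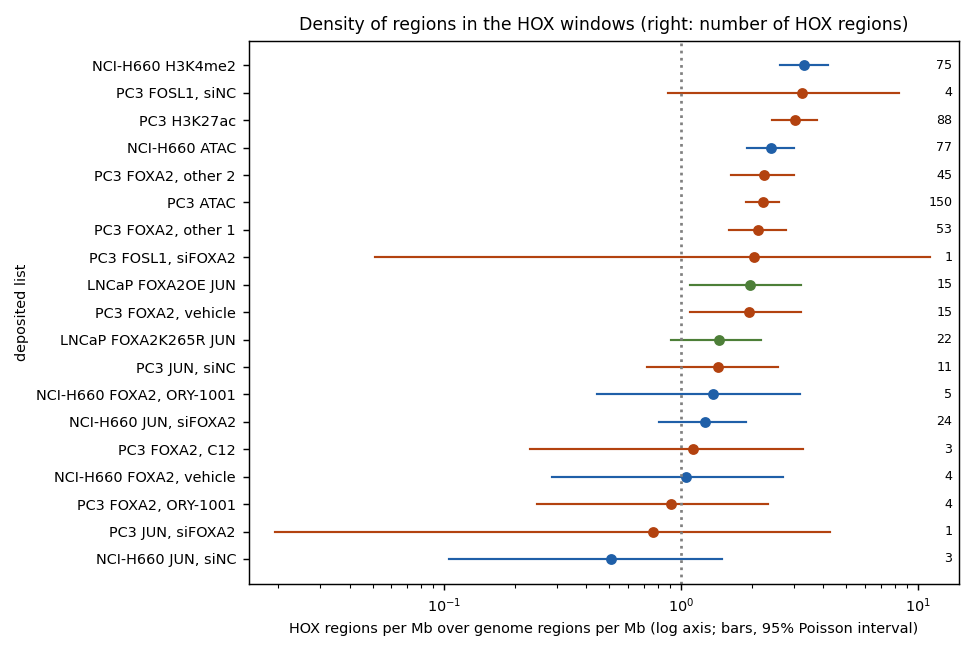
Number of HOX regions per Mb divided by the number per Mb of genome for the 19 lists with a HOX region (log axis), with 95% Poisson intervals and the number of HOX regions at the right. PC3 lists are orange, NCI-H660 lists blue and LNCaP lists green, and the intervals of the ATAC, mark, vehicle and other PC3 FOXA2 and FOXA2OE JUN lists lie wholly above 1.

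Accessible HOX regions were shared between the lines more often than accessible regions in general, and the order of the clusters in this depended on the line counted. Of the 150 PC3 ATAC regions, 56 (37.3%, 30 to 45.3) overlapped an NCI-H660 ATAC region, against 21.5% of the whole list. Of the 77 NCI-H660 ATAC regions, 45 (58.4%, 47.3 to 68.8) overlapped a PC3 region, against 41.2% of the whole list. By cluster, 23 of 40 PC3 regions were shared in A, 17 of 57 in B, 6 of 30 in C and 10 of 23 in D. Of the NCI-H660 regions, 16 of 23 were shared in A, 14 of 29 in B, 6 of 8 in C and 9 of 17 in D. Cluster C thus had the lowest shared part counted from PC3 and the highest counted from NCI-H660. The shared regions were wider, more often marked and richer in CpG. In PC3 their median width was 501.5 bp and their median score 328, against 230 bp and 92 for those found in PC3 only. H3K27ac overlapped 48 of 56 shared regions (85.7%; whole list 60.8%) and 31 of 94 PC3-only regions (33%; whole list 23.3%), so the order was that of the whole list. Over all HOX regions, 52.7% of PC3 ATAC regions carried H3K27ac (31.4% of the whole list) and 74% of NCI-H660 ATAC regions carried H3K4me2 (54.1% of the whole list). The median GC content of the shared regions was 63.6% in PC3 and 63% in NCI-H660, against 53.3% and 51.8% for the regions of a single line. The observed-to-expected CpG ratio followed, with 0.705 and 0.667 in shared regions against 0.379 and 0.366. The ATAC lists of the whole genome showed the same order, with CpG ratios of 0.373 and 0.347 in shared regions against 0.18 and 0.177. The ATAC lists came from different folders, and the part of the folder in the line difference was not tested.

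**Figure D2:**
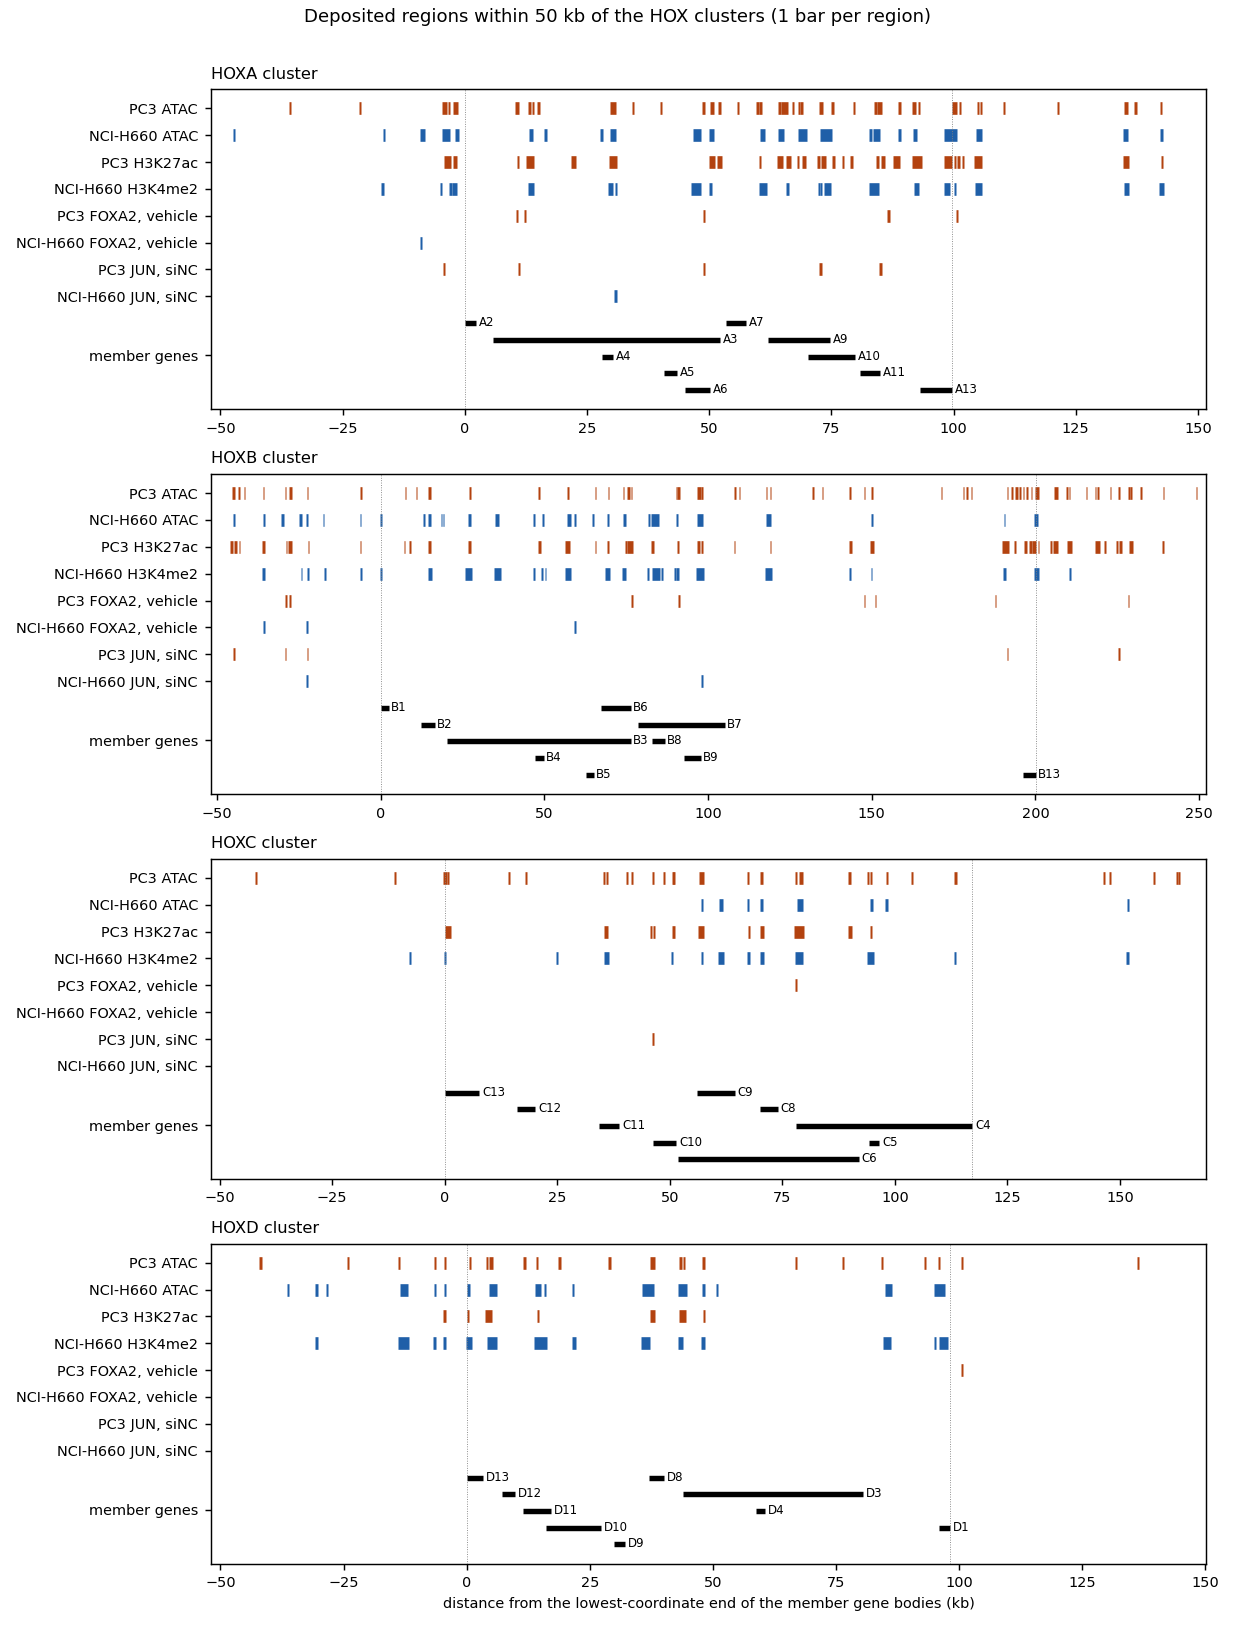
Maps of the 4 HOX windows with each deposited region as a bar, member gene bodies in black below and dotted lines at the outer ends of the gene bodies; the x axis is the distance in kb from the lowest-coordinate end of the member gene bodies, and the narrowest regions are widened to stay visible. PC3 lists are orange and NCI-H660 lists blue. The 54 kb of HOXB13 and its outer flank hold 17 PC3 ATAC regions and 1 from NCI-H660. ATAC regions of the HOXD cluster are wider in NCI-H660, as they are over the whole lists (median 530 bp against 221 bp).

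Cluster A, with members from anterior HOXA2 to posterior HOXA13, had 23 of its 40 PC3 ATAC regions in common with NCI-H660, and 20.2 kb were accessible in PC3 and 25.1 kb in NCI-H660. The highest PC3 ATAC scores were at HOXA10 (chr7:27214860-27215497, 1933), at HOXA13 (chr7:27239662-27240749, 1910) and at HOXA4 (chr7:27169619-27170872, 1229), and each of these places was also accessible in NCI-H660. HOXA10 and HOXA13 act in the genital tract and the posterior limb. At HOXA13 the NCI-H660 region was wider, 2488 bp against 1088 bp, as ATAC regions were over the whole lists (median 530 bp against 221 bp). Its score of 613 lay at the 74th percentile of its list while the PC3 score lay at the 94.5th.

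Cluster B went apart around HOXB13, the prostate lineage factor. In the 54 kb made up of the HOXB13 body and the flank beyond it, a stretch set apart after the values were seen, PC3 ATAC had 17 regions that covered 12.8% of the bases, while NCI-H660 ATAC had 1 region that covered 1.97%. H3K27ac in PC3 had 13 regions there, covering 21.8%, among them the highest-scoring H3K27ac region of all HOX windows (chr17:46823985-46825636, score 3246, 99.1th percentile, 17873 bp from HOXB13). H3K4me2 in NCI-H660 had 2 regions, covering 3.99%. The 54 kb also hold part of another gene, TTLL6 (chr17:46839596-46894591), and PRAC1 and PRAC2 lie on the other side of HOXB13. Distances are given to HOX members only, and no region was assigned to a target gene. The HOXB13 promoter itself was in the lists of both lines, with an ATAC score of 1123 in PC3 (89th percentile) and 110 in NCI-H660, and an H3K4me2 score of 690 (97.3th percentile) in NCI-H660. The stretch from HOXB1 to HOXB9 showed the opposite balance, with 7.98 kb accessible in PC3 and 14.4 kb in NCI-H660. The gap of 91.2 kb between that stretch and HOXB13 held 18 PC3 ATAC regions (5.35 kb) and 3 from NCI-H660 (2.31 kb). The highest-scoring ATAC region of each line lay on the far side of HOXB1, at chr17:46560564-46561441 in PC3 (score 4937, 99.3th percentile, 44447 bp from HOXB1) and at chr17:46583110-46583510 in NCI-H660 (score 1037, 87.4th percentile, 22378 bp from HOXB1), and both were intergenic and present in both lines.

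In cluster C the promoters of the posterior genes HOXC10, HOXC11 and HOXC13 were accessible in PC3 only. The PC3 ATAC scores were 926 at HOXC13, 20 at HOXC11 and 820 at HOXC10, whereas the nearest NCI-H660 ATAC region was 57006 bp from the HOXC13 start, 22709 bp from HOXC11 and 10691 bp from HOXC10. A weak H3K4me2 region (score 43) lay at HOXC13 in NCI-H660 all the same. HOXC13 drives hair and nail differentiation, and HOXC10 and HOXC11 pattern the hindlimb and lower spine. In the middle of the cluster the promoters of HOXC4, HOXC5, HOXC6, HOXC8 and HOXC9 were accessible and marked in both lines, though not always alike. At HOXC6 the highest ATAC score was 256 in PC3 and 38 in NCI-H660 (5.73th percentile). At HOXC9 the highest ATAC regions lay apart, at chr12:54389095-54390268 in PC3 (240) and chr12:54393656-54394401 in NCI-H660 (120). A weaker NCI-H660 region (chr12:54389621-54389874, 38) lay inside the PC3 one. The highest H3K4me2 score of all HOX windows lay at HOXC5 (chr12:54426509-54428088, score 1244, 99.7th percentile). In all, 10.2 kb of cluster C were accessible in PC3 and 4.74 kb in NCI-H660.

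Cluster D was more open in NCI-H660, although it had fewer regions there. NCI-H660 ATAC had 17 regions covering 16.9 kb, while PC3 ATAC had 23 regions covering 7.21 kb. Likewise H3K4me2 covered 17.4 kb in NCI-H660 and H3K27ac 5.49 kb in PC3. ATAC regions were wider in NCI-H660 over the whole lists too, with a median of 530 bp against 221 bp. The highest NCI-H660 region was at HOXD1, which acts in hindbrain and sensory neurons (chr2:177052300-177054575, 2276 bp, score 876). PC3 had a score of 49 there and no H3K27ac region, the nearest being 47720 bp away. HOXD12, a posterior limb gene, had an accessible and H3K4me2-marked promoter in NCI-H660 (scores 474 and 193), while PC3 had none within 1 kb of the start. The NCI-H660 ATAC region reached to 985 bp from the start, and it overlapped the highest PC3 ATAC region of cluster D (chr2:176962072-176962817, score 1567), which ended 1706 bp from it, and a PC3 H3K27ac region (1266), so the place itself was accessible in both lines.

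Promoters, taken as 1 kb on either side of every protein-coding transcript start, were accessible at 25 of 38 members in PC3 (65.8%, 49.9 to 78.8), against 77.5% of 19834 protein-coding genes, and at 25 of 38 in NCI-H660, against 74.6%. H3K27ac marked 24 in PC3 (63.2%, 47.3 to 76.6; all genes 68%), and H3K4me2 marked 25 in NCI-H660 (65.8%; all genes 74.4%). The background shares lay within these intervals. By position, the anterior genes (paralogs 1 to 3) were accessible at 4 of 7 promoters in PC3 and 4 of 7 in NCI-H660, the central genes (4 to 8) at 9 and 11 of 15, and the posterior genes (9 to 13) at 12 and 10 of 16. Some members share a promoter region, namely HOXC4 with HOXC6 and HOXB7 with HOXB8, so they are not independent.

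Of the members, 20 were accessible in both lines, 5 in PC3 only, 5 in NCI-H660 only and 8 in neither. These were 52.6%, 13.2%, 13.2% and 21.1% of members, against 69.7%, 7.8%, 4.91% and 17.6% of all genes. Those in PC3 only were HOXA7, HOXB6, HOXC10, HOXC11 and HOXC13, and those in NCI-H660 only were HOXA6, HOXB4, HOXB7, HOXB8 and HOXD12. HOXB6 had an ATAC score of 809 and an H3K27ac score of 1586 in PC3, while the nearest NCI-H660 ATAC and H3K4me2 regions lay 1563 bp and 1597 bp from its start. HOXA6 was the counterpart, with an ATAC score of 529 and an H3K4me2 score of 289 in NCI-H660 and none in PC3. HOXB4 and HOXB7 were accessible at the promoter in NCI-H660 only (scores 38 and 358), yet in PC3 they carried H3K27ac (337 and 226), and for HOXB4 the nearest PC3 ATAC region lay 1124 bp from the start, just beyond the limit of 1 kb. Likewise the HOXA6 start was 1176 bp from a PC3 region, so these calls depend on the limit, as do those of HOXB6 and HOXD12.

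The 8 members that were accessible in neither line were HOXA2, HOXA5, HOXB1, HOXB2, HOXC12, HOXD4, HOXD9 and HOXD10. They had no region within 1 kb of a start in any of the 22 lists. The distance from their starts to the nearest ATAC or mark region ran from 1025 bp at HOXD9 and 1037 bp at HOXB2 to 7839 bp at HOXD4. HOXA2, HOXB1 and HOXB2 act in the hindbrain, and HOXD9 and HOXD10 pattern the limb and lower spine. Their base composition was close to that of the other members, with a median GC content of 59% and a CpG ratio of 0.704 within 500 bp of the gene start, against 60.3% and 0.678 for the 20 members open in both lines and 59.2% and 0.687 for all genes. At the other end, 18 members were in the ATAC and mark lists of both lines, among them HOXA9, HOXA10, HOXA13, HOXB13, HOXC6 and HOXD13.

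**Figure D3:**
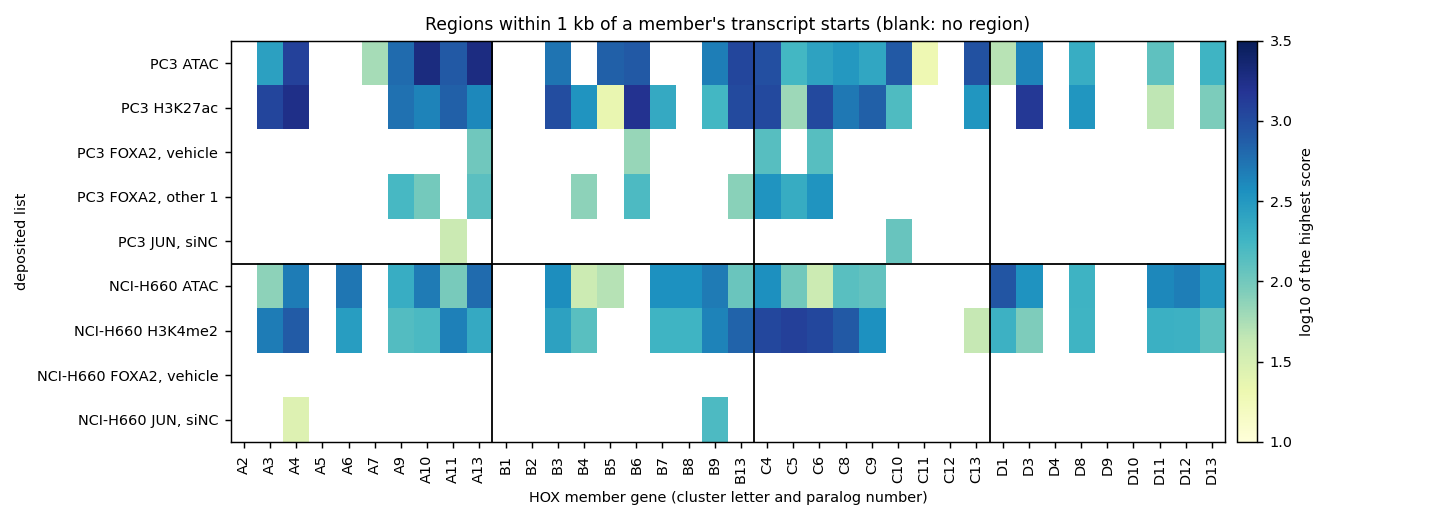
Highest score (log10, colour) of a region within 1 kb of a protein-coding transcript start for the 38 member genes (x axis, by cluster and paralog number) in 9 lists (y axis, PC3 above the line and NCI-H660 below), with blank cells where there was no region. 8 columns are blank throughout, and HOXC10, HOXC11 and HOXC13 are filled in PC3 ATAC but blank in NCI-H660 ATAC.

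Among the other genes of HOX regulation, the promoters of MEIS1, MEIS2, MEIS3, PKNOX1 and PKNOX2, which encode TALE homeodomain cofactors of HOX proteins, and of the related TGIF1 and TGIF2 were accessible and marked in both lines. FOXA2 lay at the promoter of TGIF1 in both lines (vehicle scores 556 in PC3 and 213 in NCI-H660) and at that of MEIS1 in NCI-H660 (66) and in the other PC3 FOXA2 ChIPs (263 and 44), though not in the PC3 vehicle list. Of the 6 ParaHox genes, GSX1, GSX2 and PDX1 were accessible in both lines and CDX1, CDX2 and CDX4 in neither. H3K4me2 marked 4 of them in NCI-H660 and H3K27ac 1, GSX2, in PC3. Of the cluster neighbours, EVX1 beyond HOXA13 was accessible in both lines and EVX2 beyond HOXD13 in neither at the promoter.

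The vehicle FOXA2 lists of PC3 and NCI-H660 had no HOX place in common, which at these numbers could not be told from the whole lists. This did not hold for the other FOXA2 ChIPs of PC3, also vehicle samples, which each held 3 of the 4 NCI-H660 regions. None of the 15 PC3 regions overlapped any of the 4 NCI-H660 regions, and the upper limits of 20.4% and 49% lay above the 11.1% of the whole PC3 list and the 22.5% of the whole NCI-H660 list. The 15 PC3 regions were 5 in cluster A, 8 in B, 1 in C and 1 in D, and all 15 were in both other FOXA2 ChIPs, where 92.5% and 90.8% of the whole list were found. The highest was the region 28053 bp beyond HOXB13 (chr17:46834165-46834555, score 629, 92.3th percentile), which was accessible and marked by H3K27ac in PC3 (scores 2150 and 611) and was in no NCI-H660 list. Next came chr17:46577989-46578271 beyond HOXB1 (253), chr17:46696763-46697075 in an intron of HOXB7 (190) and chr17:46793469-46793766, 8359 bp from HOXB13 (143). The remaining scores ran from 139 to 22, and the median of 104 lay below the 150 of the whole list. Of the 15, 11 were accessible in PC3 (73.3%; whole list 89.3%), 8 carried H3K27ac (53.3%; 58.7%) and 1, in front of HOXA13, was accessible in NCI-H660 (6.67%; 22.6%).

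Further regions among the 10 highest lay at the start of HOXC4 in HOXC6 (chr12:54410396-54410651, 138), in HOXA3 (chr7:27150430-27150679, 123), in an intron of HOXA3 and HOXA6 (chr7:27188770-27189057, 104) and 694 bp in front of HOXA13 (chr7:27240404-27240631, 103). The list was completed by chr17:46576656-46576914 beyond HOXB1 (139) and chr17:46753491-46753743 in the gap between HOXB7 and HOXB13 (89). The other 5 lay in an intron of HOXA3 (72), in a UTR of HOXB6 (68), 2118 bp from HOXD1 (62), 1590 bp from HOXA11 (56) and in the gap before HOXB13 (22). In the other FOXA2 ChIPs the highest HOX regions were the place 28019 bp beyond HOXB13 (score 831) and the HOXB1 flank at chr17:46577884-46578375 (757). FOXA2 was thus within 1 kb of a start of HOXA13, HOXB6, HOXC4 and HOXC6, which made 4 of 38 members (10.5%, 4.17 to 24.1) against 4.96% of all genes. In the larger of the other FOXA2 ChIPs it was 9 of 38 (23.7%, 13 to 39.2), against 21.1% of all genes.

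In NCI-H660 all 4 FOXA2 regions were accessible (whole list 90.9%), 1 carried H3K4me2 (whole list 62.7%) and none was within 1 kb of a member start, against 3.25% of all genes. They were chr17:46583052-46583396 (score 592, 94.6th percentile) and chr17:46570005-46570275 (199) beyond HOXB1, chr7:27130760-27131111 in cluster A, 8862 bp from HOXA2 (449), and chr17:46664951-46665246 in an intron of HOXB3 (304). The 2 places beyond HOXB1 were also accessible in PC3, with ATAC scores of 1065 and 1201. Although none was in the PC3 vehicle list, 3 of the 4 were in both other FOXA2 ChIPs of PC3, with scores of 650 and 399, 386 and 296, and 382 and 171 (75%, 30.1 to 95.4, against 31.5% and 28.4% of the whole list). Only the cluster A region was found in no PC3 list. The separation of the lines at these 3 places thus held for the PC3 vehicle list and not for the other FOXA2 ChIPs.

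**Figure D4:**
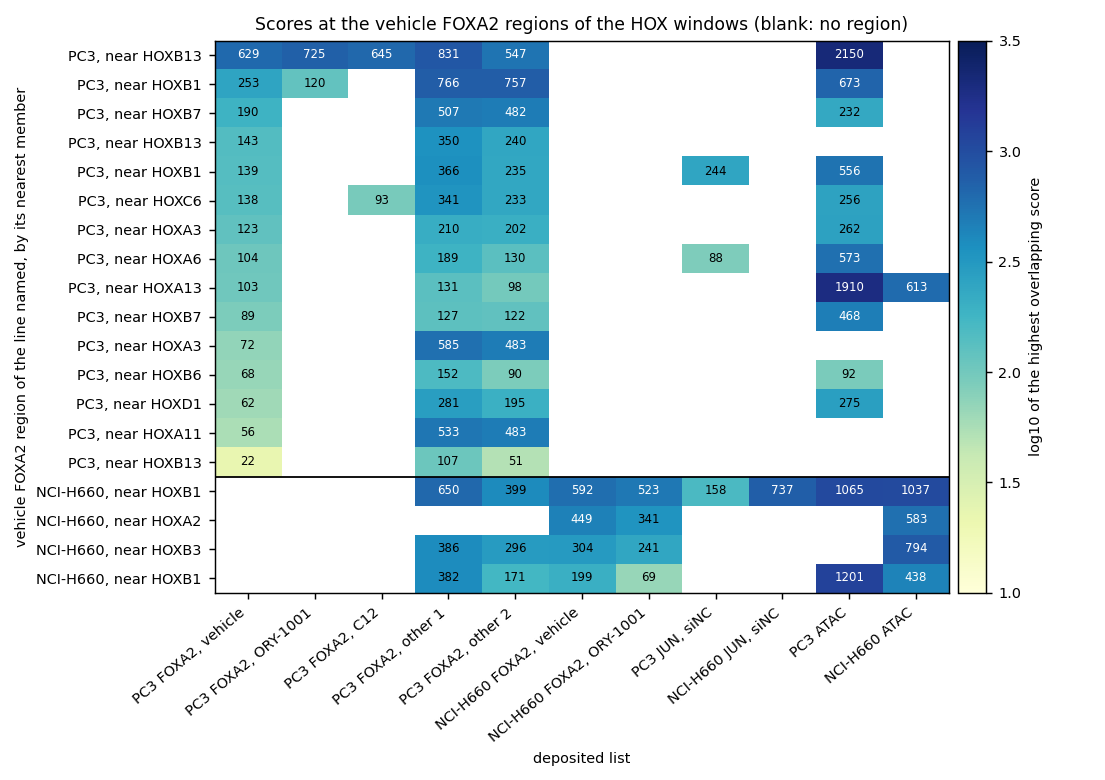
Scores (numbers, colour on a log10 scale) of the highest overlapping region in 11 lists (columns) at the 15 PC3 and 4 NCI-H660 vehicle FOXA2 regions of the HOX windows (rows, named by the nearest member), with blank cells where there was no region. All 15 PC3 rows are filled for both other FOXA2 ChIPs, the top row is the only one filled under both inhibitors, and 3 of the 4 NCI-H660 rows are filled for the other PC3 ChIPs but not for PC3 vehicle.

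The forkhead motif was found in most of these FOXA2 regions, at shares whose intervals held those of the whole lists. Within 100 bp of the centre it was found in 11 of the 15 PC3 regions (73.3%, 48 to 89.1; whole list 77.3%) and in 4 of 4 in NCI-H660 (whole list 75.9%). AP-1 matches occurred in 5 of the 15 (33.3%, 15.2 to 58.3; whole list 26.4%) and in none of the 4 (whole list 6.30%). Among HOX regions of the ATAC lists forkhead matches were less common than in the whole lists, with 16.7% (11.6 to 23.4) against 29.9% in PC3 and 22.1% (14.3 to 32.5) against 35.2% in NCI-H660. AP-1 matches were in 9.33% (5.64 to 15.1) against 16.9% in PC3, while the NCI-H660 share of 2.60% (0.715 to 8.98) had an interval that held the 5.37% of its list. A match describes the letters of the sequence and not a bound site.

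JUN overlapped vehicle FOXA2 regions at few HOX places, while in PC3 it overlapped the longer other FOXA2 lists at more of them. Of the 15 PC3 vehicle FOXA2 regions, 2 were also in the JUN list (13.3%, 3.74 to 37.9), and the 44.3% of the whole list lay above that interval. They were the regions beyond HOXB1 (chr17:46576656-46576914, FOXA2 139, JUN 244), whose printed sequence has an AP-1 and a forkhead match, and in HOXA6 (chr7:27188770-27189057, FOXA2 104, JUN 88), which has forkhead matches only. In NCI-H660 it was 1 of 4 (25%, 4.56 to 69.9; whole list 36.4%), the region beyond HOXB1 (chr17:46583052-46583396, FOXA2 592, JUN 737), with forkhead and AP-1 matches in separate stretches. That place was also the only one with JUN in both lines (1 of 11 PC3 regions against 12.8% of its list, and 1 of 3 NCI-H660 regions against 16.5%), and its JUN score in PC3 was 158. The JUN lists of the lines came from different folders. In PC3 further JUN regions overlapped both other FOXA2 ChIPs, though not the vehicle FOXA2 list. They lay beyond HOXB1 at chr17:46560756-46561375 (FOXA2 194 and 151) and at chr17:46583272-46583646 (650 and 399). Others lay in HOXA3 at chr7:27150890-27151175 (178 and 130) and in HOXA10 at chr7:27212529-27212825 (458 and 338). The share of the whole JUN list in those ChIPs was not computed.

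The 11 PC3 JUN regions were all accessible (whole list 96%). The highest was chr17:46831225-46831565, 25113 bp beyond HOXB13 (score 942, 98th percentile), which had no FOXA2 region in any list and no AP-1 match in its sequence. JUN was within 1 kb of the starts of HOXA11 (39) and HOXC10 (111) in PC3, 2 of 38 members against 10.7% of all genes. In NCI-H660 it was within 1 kb of the starts of HOXA4 (28) and HOXB9 (152), 2 of 38 against 22.7%. The interval of either share, 1.46 to 17.3%, held the background of PC3 and lay below that of NCI-H660. Of the 4 FOSL1 regions of PC3, 3 lay at HOXA4 (chr7:27170471-27170692, 229), HOXA9 (chr7:27205057-27205408, 223) and HOXC13 (chr12:54332283-54332560, 106). That made 3 of 38 members with FOSL1 within 1 kb of a start (7.89%, 2.72 to 20.8), against 2.05% of all genes.

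Under the LSD1 inhibitors most PC3 FOXA2 regions of the HOX windows were missing, as they were across the genome. Under ORY-1001, 2 of 15 were kept (13.3%, 3.74 to 37.9; whole list 36.8%), and under C12 also 2 of 15 (whole list 29.6%). The region beyond HOXB13 was the only one kept under both, with scores of 629 under vehicle, 725 under ORY-1001 and 645 under C12. ORY-1001 also kept chr17:46577989-46578271 beyond HOXB1 (253 under vehicle, 120 under ORY-1001), and C12 kept the region at HOXC4 and HOXC6 (138 and 93). The highest-scoring regions lost were the HOXB7 intron under ORY-1001 (190) and the HOXB1 flank under C12 (253), and 12 of 15 were lost under both. New regions were 2 of 4 under ORY-1001 (whole list 35.6%), led by chr7:27174137-27174385 in HOXA3 (89), and 1 of 3 under C12 (whole list 14.9%), at chr17:46779773-46780025 (22). The vehicle list was longer than the inhibitor lists (24038 regions against 13732 and 8352), and with equal numbers of highest-scoring regions 33.3% of 6 HOX regions were kept under ORY-1001 and 50% of 2 under C12. The whole-list shares with equal numbers were not computed. The inhibitor lists are compared with the same vehicle list, and their doses differ, so the compounds were not compared with each other.

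In NCI-H660 all 4 HOX regions of FOXA2 were still listed under ORY-1001, which at this number could not be told from the whole list. The share kept was 100% (51 to 100), an interval that held the 68.4% of the whole list. Their scores were 592 and 523, 449 and 341, 304 and 241, and 199 and 69 under vehicle and ORY-1001. The only new region of 5 (whole list 29.1%) was chr17:46599615-46599843, 6045 bp from HOXB1 (68), which was also in the other FOXA2 ChIPs of PC3. Scores of different lists depend on depth, so their fall was not read as a loss of binding.

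Under siFOXA2 the JUN lists of the HOX windows went opposite ways in the lines. In PC3 they went from 11 regions to 1, while the whole list went from 23890 to 4081. The region kept was the one beyond HOXB13, with a score of 942 under siNC and 200 under siFOXA2 (9.09% kept, 1.62 to 37.7; whole list 13.4%; 50% of 2 with equal numbers of highest-scoring regions), and the highest one lost was chr17:46560756-46561375 beyond HOXB1 (337). FOSL1 went from 4 regions to 1, and none of the 4 was kept (0%, upper limit 49%; whole list 6.9%). The FOSL1 region at HOXA4 was the highest lost, and the new one was chr17:46594562-46594730 (score 18). In NCI-H660 JUN went from 3 regions to 24, while the whole list went from 18401 to 59452. Only the region at HOXA4 (chr7:27170608-27170922, score 28) was kept (33.3%, 6.15 to 79.2; whole list 48%), and the JUN and FOXA2 region beyond HOXB1 (737) was lost.

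The 24 NCI-H660 JUN regions under siFOXA2 were 7 in cluster A, 3 in B, 7 in C and 7 in D, and 23 were new (whole list 85.2%). Their scores were low, from 16 to 78 with a median of 31.5 against 39 in the whole list. The 24 were 1.26 times the genome density of that list (0.808 to 1.88), an interval that held 1. Of these, 14 overlapped accessible chromatin of NCI-H660 (58.3%, 38.8 to 75.5; whole list 31.5%), including all 7 in cluster D and none in cluster C. They lay at the promoters of HOXA3 (22), HOXA4 (39), HOXD1 (16), HOXD8 (44) and HOXD11 (19). That made 5 of 38 members (13.2%, 5.75 to 27.3), an interval below the 38.5% of all genes. None of the 24 held an AP-1 match within 100 bp of its centre (upper limit 13.8%; whole list 4.99%).

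**Figure D5:**
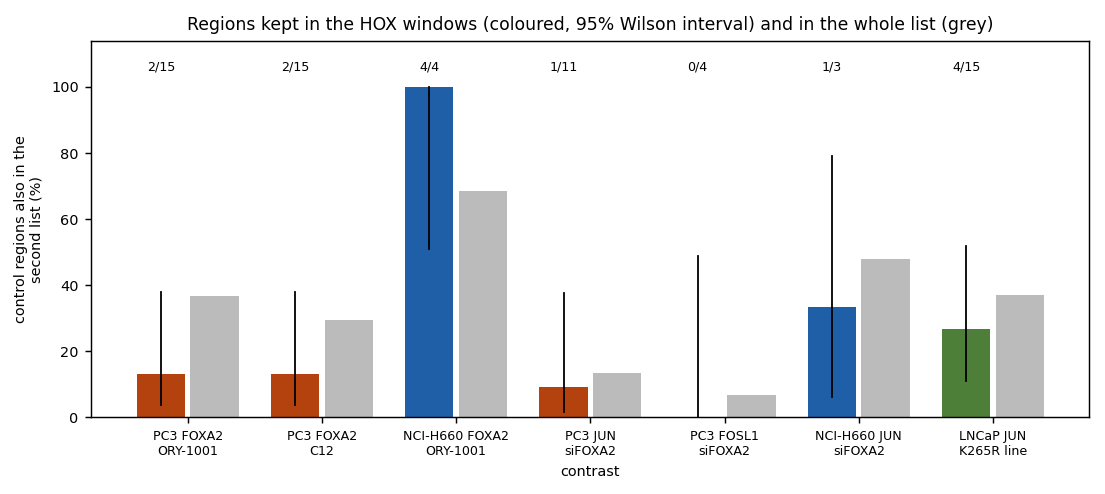
Share of control HOX regions that overlapped a region of the second list (coloured bars, PC3 orange, NCI-H660 blue, LNCaP green, with 95% Wilson intervals and numbers above) beside the share of the whole control list (grey) in 7 contrasts. In NCI-H660 4 of 4 FOXA2 regions were kept under ORY-1001, against 2 of 15 in PC3, and all 7 grey shares lie within the intervals beside them.

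In LNCaP cells with FOXA2 the JUN lists had HOX regions, 15 in FOXA2OE cells (1.95 times the genome density, 1.09 to 3.22) and 22 in FOXA2K265R cells (1.45 times, 0.906 to 2.19). Of the 15, 4 were found in FOXA2K265R cells (26.7%, 10.9 to 52; whole list 37%), and 18 of the 22 were new (whole list 81.3%). The 4 places were chr12:54321346-54321637, 10978 bp from HOXC13 (scores 84 and 60), chr7:27265251-27265573 beyond HOXA13 (66 and 33), chr17:46830116-46830321 beyond HOXB13 (60 and 31) and chr17:46570029-46570438 beyond HOXB1 (44 and 53). The last is the place of the NCI-H660 FOXA2 region with score 199. The highest FOXA2OE region was chr12:54333554-54333806 in HOXC13 (127), which was lost, and the highest new FOXA2K265R region was chr17:46755540-46756014 in the gap between HOXB7 and HOXB13 (62). Promoters of 2 of 38 members had JUN in FOXA2OE cells (HOXC13 and HOXD8; 5.26%, 1.46 to 17.3; all genes 26.7%). In FOXA2K265R cells it was 6 (HOXA4, HOXC4, HOXC13, HOXD3, HOXD8 and HOXD11; 15.8%, 7.44 to 30.4; all genes 40.7%). Both intervals lay below the share of all genes. No region of either list held an AP-1 match within 100 bp of its centre, 0 of 15 and 0 of 22, against 2.38% and 4.09% of the whole lists. The lists came from different folders, so the FOXA2 form and the folder cannot be told apart, and with no HOX region in the LNCaP siNC list no share kept could be given against it.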

How the data were processed

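Per the labels and the study's methods, the authors aligned reads to hg19 with BWA 0.7.17-r1188, handled them with SAMtools 1.9 and called regions with MACS2 2.1.4. GEO's text for the ATAC-seq samples is that of ChIP, while the methods give Omni-ATAC. MACS2 settings, controls, pooling and any shift of ATAC reads were not given in the sources used here. The deposited score is a whole number taken, from its range, for the −log10 q-value multiplied by 10, and served only to rank regions inside 1 list. No score was given for JUN in LNCaP under siNC, nor for FOXA2 in FOXA2OE cells.

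HOX regions and shared regions were called by an overlap of at least 1 bp, in Python 3.11.15 with numpy 2.4.6 and scipy 1.17.1, and the code gave the same calls as bedtools 2.31.1 on simulated data. Sequence and motifs were read from the GRCh37 genome, where every chromosome name was found and no region ran past an end. Regions of unknown bases only (235) were left out of base composition. Regions were classed as coding exon, UTR, intron or intergenic. The rule named the highest HOX region of each list, the 10 highest PC3 and all 4 NCI-H660 vehicle FOXA2 regions, and the highest kept, lost and new region of each contrast, and the highest NCI-H660 JUN region under siFOXA2 and part of the cofactor list are not reported here. Other regions named were chosen after their values were seen. Members, lists and rules were chosen with earlier results of these data known. The alternatives are given in the closing section.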

Additional observations from a re-analysis of the deposited data

Results flagged for a closer look

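The number of HOX regions under the same treatment went opposite ways in PC3 and NCI-H660 in both contrasts that were made in both lines. For JUN under siFOXA2, the log2 ratio of treated over control numbers was -3.46 in PC3 (11 to 1) and 3 in NCI-H660 (3 to 24), while the whole lists moved by -2.55 and 1.69. For FOXA2 under ORY-1001 it was -1.91 in PC3 (15 to 4) and 0.32 in NCI-H660 (4 to 5), with -0.81 and -0.05 for the whole lists. Each group had 1 list, so the differences between the lines were not tested.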

How the results depend on the processing

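With 76 alternative values for 21 results, 56 stayed within the 95% interval of the reported value or, for numbers, within 1.5 times. The other 20 moved outside, and a reversal of direction was not assessed. Some of the 56 could not have changed, such as those that left out places in 17 or more lists. The density over the genome, 2.22 in PC3 and 2.41 in NCI-H660 ATAC, became 2.68 and 3.05 with the gene spans alone, 2.96 and 3.34 as a share of bases, and 2.62 in PC3 with equal numbers of highest-scoring regions, an alternative chosen after seeing the data. The shared part of ATAC regions fell to 16.7% in PC3 and 32.5% in NCI-H660 when at least 50% of both regions had to overlap, and rose to 51.2% in PC3 with equal numbers. Whole-list shares were not computed at these settings, so whether the HOX shares still lay above them was not tested. With the gene spans alone, NCI-H660 FOXA2 had 1 region, 0% of it with JUN, PC3 regions kept were 0% for FOXA2 under ORY-1001 and 0% for JUN under siFOXA2, and LNCaP JUN had 5 regions in FOXA2OE and 12 in FOXA2K265R cells. A score of at least 100 left 1 and 0 of these. Equal numbers of highest-scoring regions gave 33.3% of 6 regions kept for PC3 FOXA2 under ORY-1001, 50% for C12 and 50% for PC3 JUN, each of 2 regions, and 0% for NCI-H660 JUN, which was also 0% with a 50% overlap. The whole-list shares kept were not computed at these settings either. Without either of the other FOXA2 ChIPs the vehicle regions found stayed at 15 of 15, which was fixed in advance because all 15 were in both. No HOX place was in 17 or more lists, so leaving such places out changed nothing. No value could be had for LNCaP JUN under siFOXA1. Without read numbers, a region missing from a list cannot be told from one below its threshold. No paired analysis was possible because every compared group had 1 list. The cause of the changes was not tested.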
